A study of Homo sapiens with 4 samples.

Results

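To describe how m6A falls on one large family of ubiquitin ligase genes, meRIP-seq peak lists from OE-19 cells were read for m6A on the RNF genes, which are named for their RING finger. Members were the protein-coding genes of the GENCODE annotation of hg38 whose symbol is RNF followed by a number and, in some, a letter, with RNF43 left out. This gave 83 of 20046 protein-coding genes. OE-19 is an established human line of adenocarcinoma of the esophagogastric junction, grown in serum-containing medium with no treatment named in the labels. The series held 4 samples of this single line, of which 2 were immunoprecipitated with an anti-m6A antibody and 2 were input RNA. Each IP sample, called replicate 1 and replicate 2 below, had its own list of peaks, and the input samples entered no count. The study calls the samples biological replicates, while the labels do not say whether they were separate cultures. With 1 group of 2 lists, no test between conditions was possible, so all comparisons below are descriptions. The lists give no read numbers and no strand, so depth is unknown, and a gene without a peak may still have RNA and m6A in these cells.

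Ubiquitin is passed from an E1 activating enzyme to an E2 conjugating enzyme, and an E3 ligase then brings the loaded E2 to its substrate. In most RING ligases the RING finger, a small fold held by zinc ions, binds the E2, and ubiquitin goes directly to the substrate. m6A is a methylation of adenosine placed on nascent mRNA by the METTL3-METTL14 complex, often within a GGAC core, and is known to be dense in long exons and around stop codons.

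The sequences at the strongest peaks are shown first, because they give the base context of the enrichment values that follow. For 8 of the 12 members with the strongest shared peaks, the 30 bases around the GGAC nearest to both summits are given 5′ to 3′ on the gene's strand of hg38, with GGAC in capitals. RNF168 (chr3:196472184-196472213, minus strand, CDS), RNF185 (chr22:31205433-31205462, plus strand, 3′ UTR) and RNF223 (chr1:1071975-1072004, minus strand, CDS) had the GGAC closest to the summits, although the RNF185 summits lay also in an exon of RNF185-AS1. RNF135 (chr17:30998830-30998859, plus strand, CDS), RNF146 (chr6:127287081-127287110, plus strand, CDS), RNF111 (chr15:59031366-59031395, plus strand, CDS), RNF24 (chr20:3933955-3933984, minus strand, 3′ UTR) and RNF145 (chr5:159158790-159158819, minus strand, CDS) had it farther away.
RNF168: aacaagaagaacaGGACaggttattggcat
RNF185: agacctggagtcaGGACtttggtgggattt
RNF223: gggcgcgctgcagGGACtggaggcgcatgg
RNF135: attactgggaagtGGACactaggaattgca
RNF146: gagaaatgaacatGGACgtcgcaggaagat
RNF111: cataagtggcctcGGACtgagacagaatct
RNF24: tgctctctacctaGGACaccagctgccact
RNF145: gagcatactccagGGACcaggatacaggaa
In RNF168 the motif lay 1 nt from the replicate 1 summit and 6 nt from the replicate 2 summit. In RNF185 these distances were 16 and 21 nt, and in RNF223 they were 27 and 14 nt. They were 63 and 44 nt in RNF135, 33 and 72 nt in RNF146, 75 and 56 nt in RNF111, and 78 and 61 nt in RNF24. Among the sequences shown, the RNF145 motif was the farthest from the replicate 2 summit, at 86 nt, and lay 57 nt from the replicate 1 summit. Of the sequences shown, only those of RNF168, RNF185 and RNF223 had their motif within 50 nt of both summits. The other 4 of the 12 are not shown. In RNF25 the nearest GGAC lay 35 and 101 nt from the summits and in RNF41 230 and 213 nt. RNF32 had none in the stretch searched, and RNF215 was not searched because its summits lay outside the longest coding transcript.

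A peak placed alike in both lists was also found without GGAC near its summits. The RNF13 peak in coding sequence of the last exon had summits 3 bp apart in the 2 lists, and 0 GGAC lay within 50 nt of either. RNF13 was not alone in this. By the same count, the RNF111, RNF24 and RNF145 peaks printed above also had 0 GGAC within 50 nt of either summit. Motif forms other than GGAC were not searched, so the absence of GGAC is not the absence of an m6A motif. The 30 bases around the replicate 1 summit of RNF13 (chr3:149960863-149960892, plus strand, CDS) are shown, centred on the summit and not on a motif.
RNF13: aaaatgaagtgacagaacatacccctttac
Among all exonic summits of members, GGAC within 50 nt on the gene's strand was found at 47 of 104 in replicate 1 (45.2%, 95% Wilson interval 36.0% to 54.8%) and at 33 of 76 in replicate 2 (43.4%, interval 32.9% to 54.6%). For summits of the other protein-coding genes the shares were 49.8% and 51.8%, inside the members' interval in each list. The reverse complement, GTCC, was found at 34.6% and 25% of member summits. The intervals here and below cover counting error only.

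Next, the RNF genes carrying a peak were counted, where a gene was counted if the summit of at least 1 peak lay in one of its exons. More RNF genes had a peak than protein-coding genes as a whole. A peak was found for 49 of 83 members in replicate 1 (59.0%, Wilson interval 48.3% to 69.0%), against 42.4% of all protein-coding genes. In replicate 2 it was found for 44 (53.0%, interval 42.4% to 63.4%), against 34.1%. In both lists it was found for 43 (51.8%, interval 41.2% to 62.2%), against 33.4%, and in either list for 50 (60.2%), against 43.1%. The intervals treat members as independent, although several are related by descent, and no p was computed.

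Long genes offer more exon for a peak, so the counts were set beside genes of like exonic length. The members were not unusually long, with a median of 4442 bp of exon against 4416 bp for the other protein-coding genes. When the other genes were weighted to the members' distribution over 5 length bins, their shares were 43.0%, 34.4% and 33.7% for replicate 1, replicate 2 and both. The members lay 16.1, 18.6 and 18.1 percentage points above these. The gap was not even along the length scale. In the bin from 2155 to 3610 bp, 13 of 17 members had a peak in both lists (76.5%, interval 52.7% to 90.4%), against 25.9% of the other genes. In the shortest bin, up to 2154 bp, it was 5 of 14 (35.7%, interval 16.3% to 61.2%) against 11.3%. In the 3 longer bins the members had 38.9%, 56.0% and 44.4%, beside 35.6%, 44.7% and 48.9% of the others, and the members' intervals covered these values.

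**Figure D1:**
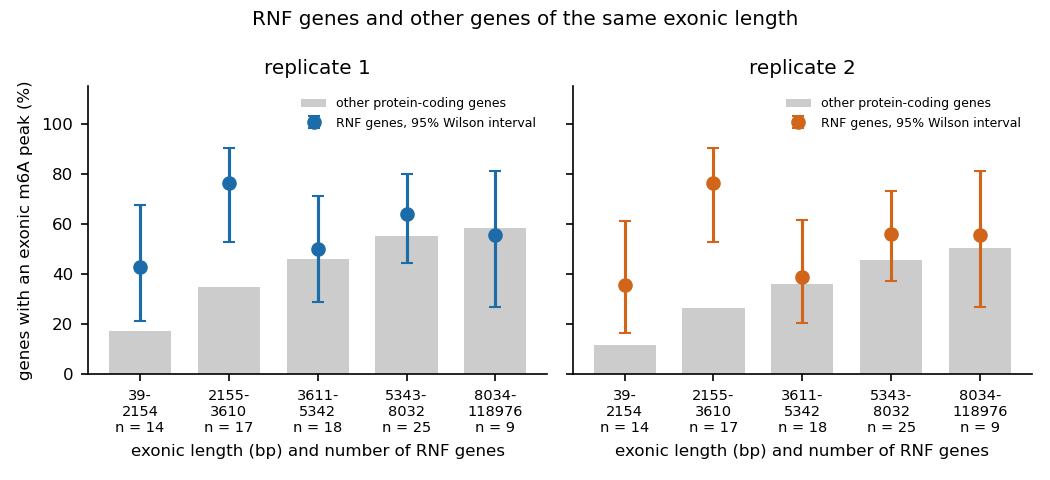
The share of genes with an exonic m6A peak (y axis, %) by exonic length in bp (x axis, 5 bins, with the number of RNF genes), for replicate 1 and replicate 2. Grey bars are the other protein-coding genes and points are RNF genes with 95% Wilson intervals; the points stand clear of the bars in the bins up to 3610 bp and lie near them in the 3 longer bins.

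Expression was not measured in these lists, and its part in the gap was not tested. Other genes of the pathway were read in the same way. Of 40 ubiquitin, E1 and E2 genes, 12 had a peak in both lists (30%, near the 33.4% of all protein-coding genes), 8 in replicate 1 alone and 20 in none. The highest of them was UBE2O, a large hybrid E2 and E3 enzyme, with 21.4 and 10.7 in replicates 1 and 2. Of 35 RING ligases that carry other names, 27 had a peak in both lists (77.1%), 4 in replicate 1 alone and 4 in none. The highest of these was SH3RF1, a RING ligase and JNK scaffold, with 18.8 and 8.32. The median exonic length was 4214 bp in the former list and 5843 bp in the latter, beside the 4442 bp of the RNF genes. Peaks could not check the labelled cell type. Of 8 epithelial genes, CDH1 and GATA6 had a peak in both lists and VIL1 in replicate 1, while ERBB2, KRT8, KRT18, KRT19 and EPCAM had none. The immune gene PTPRC and the endothelial gene PECAM1 had none, and the stromal gene COL1A1 had one in replicate 1 at 3.11.

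The enrichment of the members' peaks was then examined, as the authors' fold enrichment at the summit over the local background of the peak caller. The members held 104 exonic peaks in replicate 1 and 76 in replicate 2. Their median fold enrichment was 5.91 in replicate 1 (quartiles 4.04 and 7.95, range 2.20 to 14.6) and 5.06 in replicate 2 (quartiles 3.80 and 6.41, range 1.83 to 11.7). The other genes had medians of 5.21 and 4.72. In replicate 1, 21 members had 1 peak, 15 had 2, 11 had 3, RNF168 had 4 and RNF213 had 16. In replicate 2 there were 26 members with 1 peak, 12 with 2, 5 with 3, and RNF213 with 11.

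RNF146, which binds poly-ADP-ribosylated axin and marks it for degradation in the Wnt pathway, had 1 peak in each list with fold enrichments of 14.1 and 9.53. Its summits lay in the CDS, 628 and 667 nt before the stop codon in a last exon of 1947 nt. RNF168, which ubiquitinates histone H2A at DNA breaks, had 12 and 10.3 at summits 376 and 383 nt before the stop codon. Both genes thus carried their strongest peak in coding sequence of the last exon in both lists. RNF24, a small membrane ligase, had 11.4 and 9.51 at summits 174 and 157 nt past the stop codon. RNF41, which brings the receptor ERBB3 to degradation, had 12.3 and 7.15 at 163 and 146 nt before the stop codon. RNF223 had 11.1 and 8.39 at 143 and 156 nt before it. These 3 summits fell within 200 nt of the stop codon in both lists.

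RNF111 (Arkadia), which recognises SUMO chains and promotes TGF-β signalling, had 10.4 and 8.21 at coding summits 2526 and 2395 nt before the stop codon. This peak lay in the first exon of its longest coding transcript, the only one of the 12 strongest with its summit placed there. That transcript is annotated with 0 nt of 5′ UTR, so the placement holds for this transcript alone. Another shared RNF111 peak, with 7.51 and 5.60, lay upstream in an exon outside it. RNF185, which works in the degradation of ER proteins, had 10.0 and 7.85 at 880 and 885 nt past the stop codon. RNF135 (Riplet), an activator of the RNA sensor RIG-I, had 11.5 and 5.87 in coding sequence of its last exon. RNF25, an RWD domain ligase, had 14.6 in replicate 1, the highest value of any member, and 5.77 in replicate 2. RNF145, an ER ligase of cholesterol control, had the pair with the lowest ratio of replicate 1 to replicate 2, with 8.01 and 11.7 and a log2 ratio of −0.55.

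Some of the strongest peaks cannot be given to one gene. RNF215 had 13.8 and 9.75 at a summit that also lay in an exon of CCDC157, RNF32 had 12.1 and 7.77 at a summit in an exon of LMBR1, and the RNF185 summits lay in an exon of RNF185-AS1. Of the member summits, 15 of 104 in replicate 1 and 12 of 76 in replicate 2 lay also in an exon of another gene. The lists carry no strand, so the RNA behind these summits cannot be told apart. When only summits in exons of 1 gene were counted, 37 members kept a peak in both lists. The members' length-standardised excess over other genes in both lists was then 14.5 percentage points, against 18.1 with all exonic summits.

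**Figure D2:**
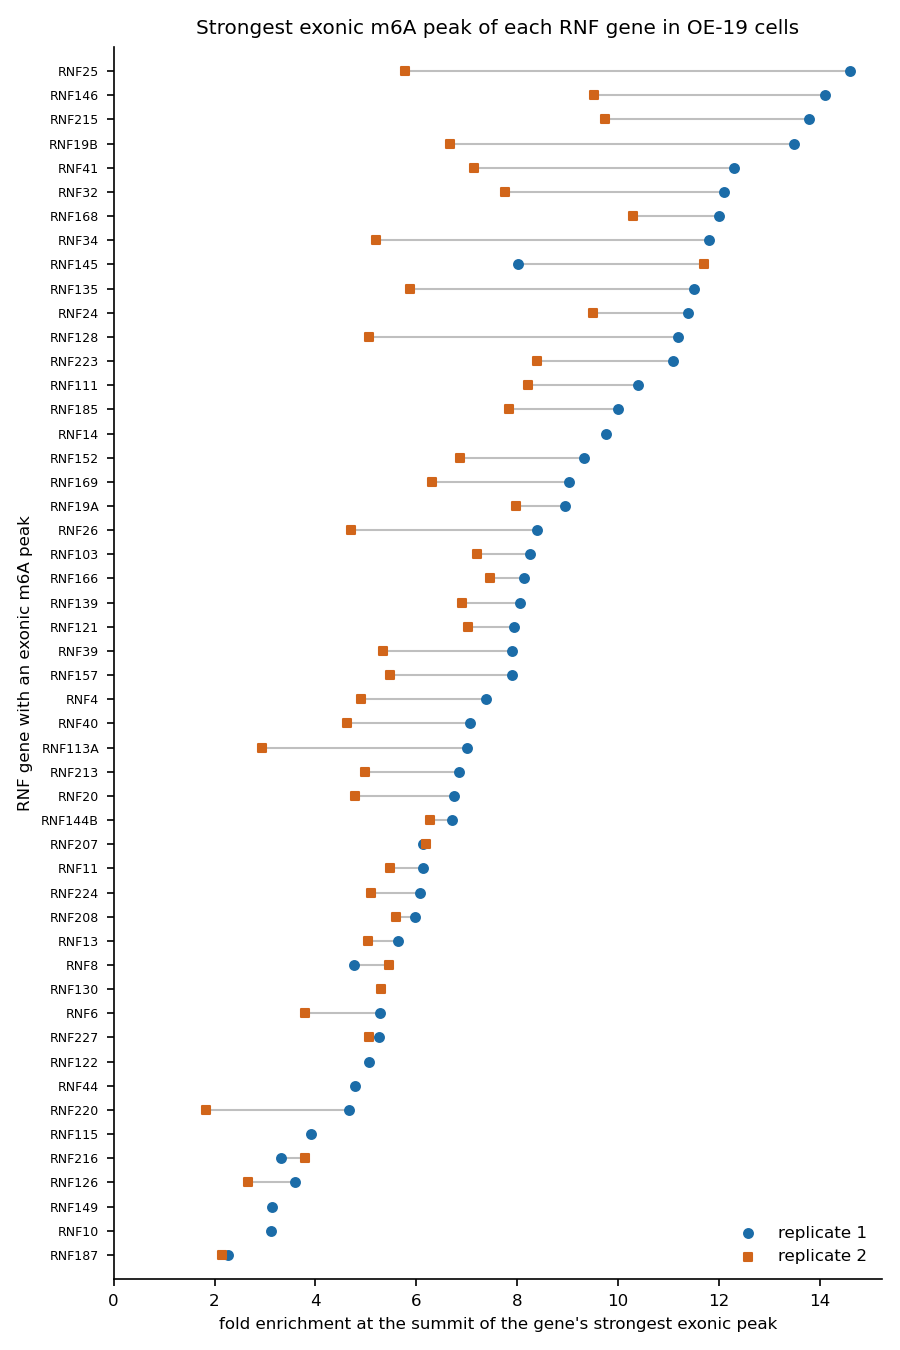
Fold enrichment (x axis, ratio) of the strongest exonic m6A peak of each of the 50 RNF genes with a peak in either list (y axis), with circles for replicate 1, squares for replicate 2 and a line joining them. Most genes lie higher in replicate 1, RNF145 is among the exceptions at 8.01 and 11.7, and 7 genes have a single symbol because they had a peak in 1 list alone.

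The lists were compared peak by peak. Of the members' peaks, 70 of 104 in replicate 1 (67.3%, Wilson interval 57.8% to 75.6%) overlapped a peak of replicate 2 by at least 1 bp, against 60.6% for the other protein-coding genes. In the other direction it was 75 of 76 (98.7%, interval 92.9% to 99.8%), against 95.9%. The counts differ because wide peaks of one list can meet several of the other. In RNF152, a lysosomal ligase of mTORC1 signalling, 1 peak of 1436 bp in replicate 1 met 3 separate peaks in replicate 2. The members had 70 pairs in which each peak was the best match of the other by overlap. Over these, log2 fold enrichment gave Pearson's r = 0.75 and Spearman's rho = 0.759, as a description across peaks that share genes and libraries. The summits of a pair were a median of 27 bp apart, and 52 of 70 pairs had them within 50 bp. In 10 pairs they were over 100 bp apart, at most 780 bp. Replicate 1 was higher in 58 pairs (82.9%, against 80.6% of pairs in other genes), with a median log2 ratio of 0.43 that was 0.44 for other genes.

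Where along the transcript the summits lay was examined on the transcript with the longest CDS. Of the member summits, 91 in replicate 1 and 67 in replicate 2 lay on it, and the other 13 and 9 lay in exons of other transcripts. The stop codon window, 200 nt on each side, held 26 of 91 summits in replicate 1 (28.6%, Wilson interval 20.3% to 38.6%) on 12.1% of the transcript length, a ratio of 2.35. In replicate 2 it held 19 of 67 (28.4%, interval 19.0% to 40.1%) on 11.6% of the length, a ratio of 2.45. The ratios of the other genes were 2.19 and 2.57, close to those of the members. The rest of the CDS held 49.5% and 46.3% of summits on 46.1% and 44.6% of the length. The rest of the 3′ UTR held 14.3% and 17.9% on 33.7% and 35.4% of the length, and the 5′ UTR 7.69% and 7.46% on 8.06% and 8.42%.

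Most summits kept their region from list to list. Of 61 pairs with both summits on the transcript, 56 lay in the same region, with 26 in the CDS, 18 in the stop codon window, 10 in the 3′ UTR and 2 in the 5′ UTR. A pair in the stop codon window was found in 17 members. They include RNF4, a SUMO-targeted ligase, with 7.39 and 4.90 at 48 and 38 nt past the stop codon, and RNF121, a membrane ligase of the secretory pathway, with 7.93 and 7.02 at 28 and 25 nt past it. In RNF11, a small PPxY-containing ligase, peaks in the last 2 exons both fell in the window. Their replicate 1 summits were 132 nt apart in the spliced RNA, with the upstream one 11 nt from an exon junction. An intron separates them in the genome coordinates of the lists, and whether they would be 1 peak in spliced coordinates was not tested.

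**Figure D3:**
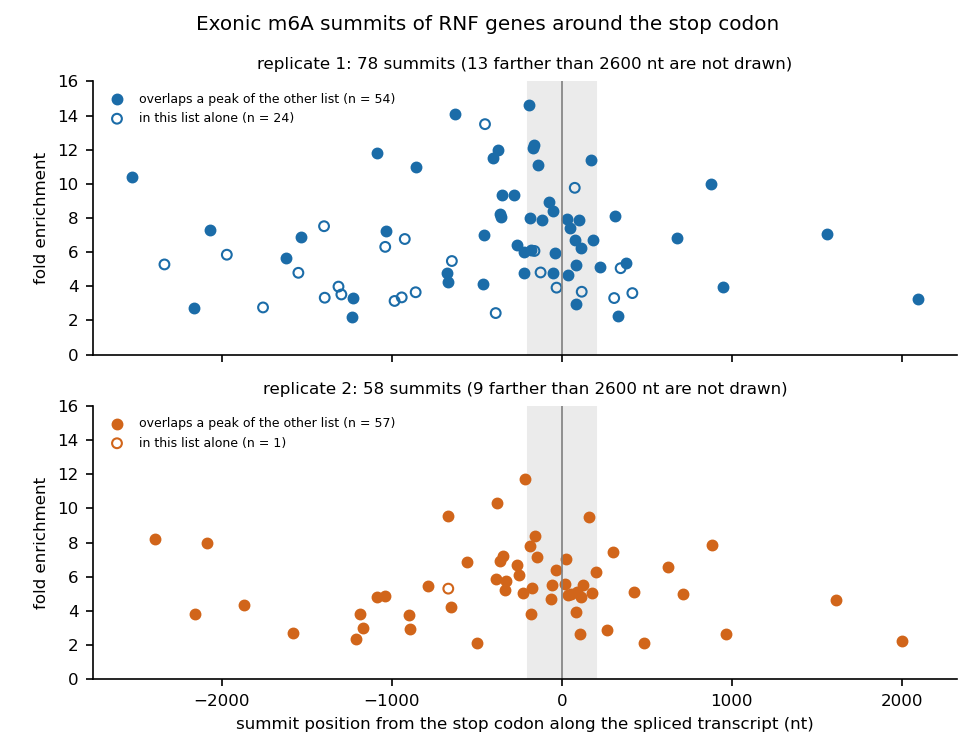
Fold enrichment (y axis, ratio) of member summits against their distance from the stop codon along the spliced transcript (x axis, nt, negative before the stop codon), for replicate 1 (78 summits) and replicate 2 (58 summits); 13 and 9 summits farther than 2600 nt are not drawn. Filled circles overlap a peak of the other list and open circles do not, the grey band is the window of 200 nt on each side, and summits gather in and just upstream of it in both lists.

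RNF genes differ in whether the RING finger lies at the end of the protein, so its place was compared with the summits. A spaced pattern of cysteines and histidines, searched in the translated coding sequence of the annotation and added once the files had been seen, was found in 78 members. In 29 of them it ended within 200 nt of the stop codon, and 16 of these had a peak in both lists. Of the other 49, 23 did. Both counts are to be held against the 51.8% of all RNF genes with a peak in both lists, and their difference was not tested. Coding summits fell inside the patterned stretch in 4 of 55 cases in replicate 1 (7.27%, on 9.07% of the coding length) and 4 of 35 in replicate 2 (11.4%, on 8.64%). RNF11, RNF26 and RNF32 had such a summit in both lists, RNF39 in replicate 1 and RNF152 in replicate 2. At counts this small the share of summits in the RING-coding stretch cannot be told apart from its share of the coding length.

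Exon length was compared next. The summits of members lay in exons far longer than those of their transcripts as a whole, with medians of 1019 nt in replicate 1 and 1947 nt in replicate 2 against 146 and 147 nt. A position drawn evenly along the same transcripts would lie in an exon with a median of 1250 and 1422 nt. The summit median was below this value in replicate 1 and above it in replicate 2. The last exon held 50 of 91 summits in replicate 1 (54.9%) and 46 of 67 in replicate 2 (68.7%), against 48.7% and 57.0% in the other genes. The internal exons with a summit had a median of 270 nt in replicate 1 and 735 nt in replicate 2, while all internal exons of these transcripts had 132 and 134 nt. The internal exons with a summit in the other genes had medians of 420 and 682 nt. The members' internal-exon medians rest heavily on RNF213. It held 8 of the 15 such summits in replicate 2, in exons of up to 3609 nt. Of the 24 in replicate 1 it held 6 shared with replicate 2 and 6 not shared. These medians were not computed without RNF213, and no length-weighted median was computed for internal exons. In replicate 2, 3 of 65 summits lay within 100 nt of an exon junction (4.62%, Wilson interval 1.58% to 12.7%), a zone with 32.4% of the transcript length, against 8.58% of summits in the other genes. In replicate 1 it was 20 of 89 (22.5%, interval 15% to 32.2%) on 34.5% of the length, against 18.8% in the other genes.

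The summits near junctions in replicate 1 belonged mostly to peaks absent from replicate 2. Among peaks shared with replicate 2, 5 of 59 summits lay within 100 nt of a junction (8.47%, interval 3.67% to 18.4%). Among those of replicate 1 alone it was 15 of 30 (50%, interval 33.2% to 66.8%). The median exon length was 1609 nt for the shared and 330 nt for the others, and the last exon held 43 of 61 and 7 of 30. In other protein-coding genes the same split gave 8.67% and 35.1% near a junction and medians of 1528 and 462 nt. Peaks of replicate 1 alone also had lower fold enrichment, with a median of 3.95 against 6.79 for shared ones. The clearest exception was RNF19B, where a peak of replicate 1 alone reached 13.5 in an internal exon of 132 nt, with the summit 0 nt from the junction. Numbers of reads were not given, so the part of depth in the extra peaks of replicate 1 was not tested.

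**Figure D4:**
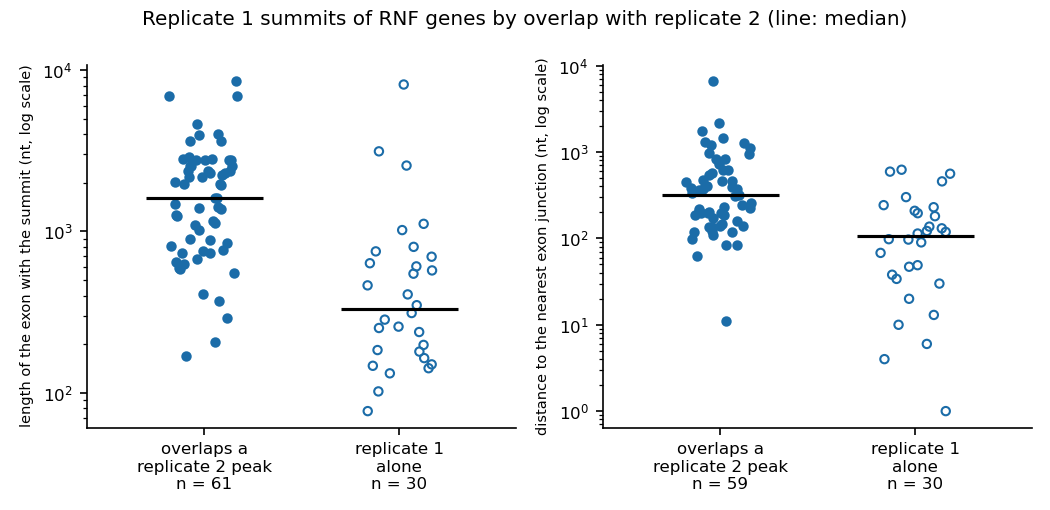
Length of the exon that holds the summit (left, nt, log scale) and distance from the summit to the nearest exon junction (right, nt, log scale, with a distance of 0 drawn at 1) for replicate 1 summits of RNF genes. Each circle is 1 summit, the line is the median, and peaks of replicate 1 alone (n = 30) lie in shorter exons and nearer to junctions than peaks that overlap replicate 2 (n = 61 and 59).

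RNF213, whose peaks are part of the counts above and so add no separate evidence, showed this split within a single transcript. It encodes a giant protein with AAA+ modules and a RING finger and is the main susceptibility gene of moyamoya disease. It held 16 of the 104 peaks in replicate 1 (15.4%) and 11 of the 76 in replicate 2 (14.5%). Among its internal exons, the 6 peaks of replicate 1 alone lay in exons of 147 to 284 nt, with fold enrichments of 2.92 to 5.18. The 6 shared ones lay in exons of 205 to 3609 nt. Exon 30, with 3609 nt, had summits at 6.06 and 5.82 in replicate 1. In replicate 2 the same exon had 4 summits, at 2.80, 4.44, 3.11 and 4.29. The highest peak of the gene lay in the 3′ UTR, with 6.84 and 4.99 at 676 and 711 nt past the stop codon. In replicate 2 a coding peak in exon 27 was almost equal to it, with 4.98. Without RNF213 the members' stop codon window share was 33.8% and 33.3%, against 28.6% and 28.4% with it.

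**Figure D5:**
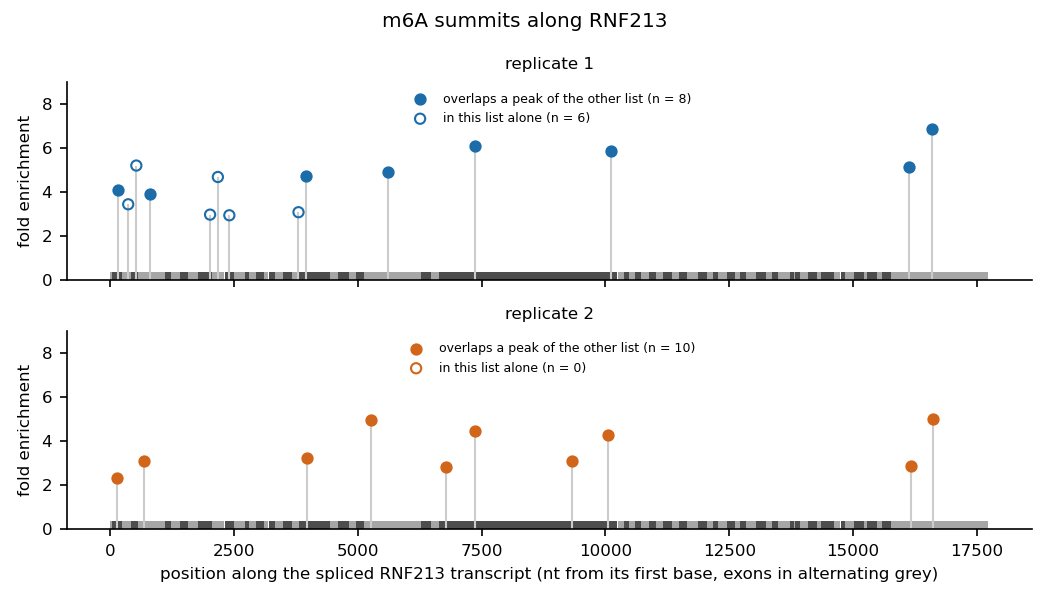
Fold enrichment (y axis, ratio) of the m6A summits on the longest coding transcript of RNF213 by position along the spliced RNA (x axis, nt from its first base), for replicate 1 above and replicate 2 below; alternating grey blocks on the axis are exons. Filled circles overlap a peak of the other list and open circles, all 6 of them in replicate 1 and in exons of 147 to 284 nt, do not.

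The members were then read by role, with each count to be held against the 33.4% of all protein-coding genes and the 51.8% of all RNF genes with a peak in both lists. The role lists are small, and none was tested. Of 8 ligases of chromatin and DNA damage, 7 had a peak in both lists (87.5%). RNF20 and RNF40 form the complex that ubiquitinates histone H2B, and both had a peak just past the stop codon. RNF20 had 6.74 and 4.79 at 80 and 114 nt, and RNF40 had 4.67 and 3.95 at 35 and 83 nt, with 2 further 3′ UTR peaks in each list. The RNF40 summits lay also in an exon of an unnamed gene of the annotation. RNF8, which starts the ubiquitin response at DNA breaks, had 4.76 and 5.46 in an internal coding exon of 735 nt. These 2 peaks overlapped by 50 bp, with summits 109 bp apart. RNF169, which binds the ubiquitin mark made by RNF168, had 5.98 and 6.09 at 225 and 254 nt before the stop codon, and a farther peak of 9.04 and 6.31 that also lay in an exon of XRRA1. RNF168 had a second shared peak in its first exon, with 6.86 and 4.34. The summits of this peak were 335 bp apart, in the CDS in replicate 1 and in the 5′ UTR in replicate 2. RNF168 also had 2 peaks of replicate 1 alone in exons of 77 and 180 nt. RNF2, the catalytic subunit of Polycomb repressive complex 1, was the member without a peak, with 3906 bp of exon.

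Of 8 RING-between-RING ligases, which carry ubiquitin on a cysteine of their own before handing it on, 4 had a peak in both lists (50%). RNF19A had 8.95 and 6.37 near the stop codon and 7.28 and 7.98 in an internal exon of 767 nt. Its relative RNF19B had 6.41 and 6.68 in the last exon, at summits 263 and 265 nt before the stop codon. RNF144B had 6.72 and 6.28 at 184 and 202 nt past the stop codon, whereas the related RNF144A, with 6450 bp of exon, had no peak. RNF216 had 2.73 and 3.80 in an internal coding exon of 843 nt. RNF14, a coactivator of the androgen receptor, had 9.77 in replicate 1 at 76 nt past the stop codon and no peak in replicate 2. RNF31, the linear chain ligase of LUBAC, and RNF217 had none.

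Of 8 ligases with a protease-associated domain and a transmembrane segment, 2 had a peak in both lists (25%). RNF13 had 4.78 and 5.05 at the coding summit whose sequence is shown above, and 5.64 and 2.70 in the 5′ UTR. RNF128 (GRAIL), known for T cell anergy, had 11.2 and 5.07 in an exon outside its longest coding transcript. RNF149 had 3.14 in replicate 1 alone and RNF130 had 5.30 in replicate 2 alone, the single member found in that list alone. RNF133, RNF148, RNF150 and RNF167 had no exonic peak.

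Of 7 ligases of the ER and secretory membranes, 5 had a peak in both lists (71.4%). RNF139 (TRC8), with a sterol-sensing domain, had 2 coding peaks in a last exon of 2788 nt, with 7.23 and 4.88 at the upstream one and 8.06 and 6.90 at the downstream one. RNF103 had 8.26 and 7.21 in its last coding exon, at a summit that also lay in an exon of CHMP3-AS1. RNF185 had 3 shared peaks, of which the one at the stop codon had 6.22 and 5.08 and the last one 3.25 and 2.26. RNF5, the close relative of RNF185, had none in 1127 bp of exon, and RNF170, which acts on the IP3 receptor, had none. In the annotation 11 members have a pseudogene named after them, among them RNF5, RNF2, RNF7 and RNF138 without a peak and RNF11, RNF13, RNF14 and RNF126 with one. How reads that match both copies were placed is not given in the sources used here, so these calls are uncertain.

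Of the 4 members of the RNF114 family of zinc finger ligases, RNF166 alone had a peak in both lists (25%), with 8.13 and 7.47 at 314 and 300 nt past the stop codon. RNF114, RNF125, which acts on RIG-I, and RNF138, which acts in DNA end resection, had none. Of 7 ligases with other well-known roles, 5 had a peak in both lists (71.4%). RNF126, which clears mislocalised proteins with BAG6, had 2.99 and 2.66 at 82 and 108 nt past the stop codon. The related RNF115 had 3.92 in replicate 1 alone, at 31 nt before the stop codon. RNF220 had 4.67 and 1.83, the latter being the lowest value of the members in replicate 2. RNF7, the RING subunit of cullin 5 ligases, had none. In the 41 members outside these lists, 19 had a peak in both lists (46.3%), 3 in replicate 1 alone and 19 in none.

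Beyond the genes above, the 19 with a peak in both lists hold RNF6, RNF34, RNF113A, RNF157, RNF187, RNF207, RNF208, RNF224 and RNF227, which were described after their values were seen. RNF34, which acts on caspases and p53, had 3 shared peaks. The one in an internal coding exon of 408 nt had 11.8 and 4.82, and the one in the last exon had 9.33 and 5.20 at a summit also in an exon of KDM2B. RNF113A, a spliceosome component encoded by a single exon, had 7.01 and 2.95 at coding summits that lay 434 bp apart, so the lists did not place this peak alike. RNF6 had 2 shared coding peaks in its last exon, with 4.16 and 2.12 at the downstream one and 3.29 and 3.80 at the upstream one. RNF208 and RNF227 had their strongest peak in the stop codon window, with 5.97 and 5.60 in RNF208 and 5.27 and 5.07 in RNF227. RNF157 had 7.91 and 5.49 in that window, at summits also in an exon of its antisense gene RNF157-AS1. RNF187 and RNF224 had their shared peak in the 3′ UTR, with 2.27 and 2.14 in RNF187 and 5.36 and 5.11 in RNF224. RNF26, an ER ligase that acts on STING, had 8.39 and 4.70 at a summit also in an exon of an unnamed gene, and RNF39 had 7.91 and 5.34, both in the stop codon window. RNF207, a cardiac ligase, had 2 shared peaks in exons outside its longest coding transcript.

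The 7 members with a peak in 1 list alone were RNF10, RNF14, RNF44, RNF115, RNF122 and RNF149 for replicate 1 and RNF130 for replicate 2. Apart from RNF14, their values ran from 3.12 in RNF10 to 5.30 in RNF130. RNF122, the relative of RNF24, had 5.06 at 346 nt past the stop codon. RNF44 had 4.79 in its 5′ UTR. Among the 33 members without an exonic peak, exonic length ran from 978 bp in RNF151 to 12887 bp in RNF217. The 5 longest were RNF217, RNF165 (11419 bp), RNF150 (11012 bp), RNF141 (7825 bp) and RNF123 (7419 bp). Outside the role lists the others included RNF17, RNF112, RNF113B, RNF151, RNF175, RNF180, RNF181, RNF182, RNF183, RNF186, RNF212, RNF212B, RNF214, RNF222 and RNF225, several of which, such as RNF17 and RNF212, are known from the germ line. Over all 33 the median length was 4098 bp, and over the 43 members with a peak in both lists it was 4569 bp.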

How the data were processed

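meRIP-seq peak lists of 2 m6A IP samples were analysed. The 2 input samples entered no count. Per the study's methods, the authors aligned paired-end reads to hg38 by TopHat2 and used MACS2 for peaks, both at default settings, while the labels' processing notes name fastp, HISAT2 and MACS2. Versions, and whether input served as control, are not given in the sources used here. The labels describe UV-fixed, lysed cells, whereas the methods describe fragmented total RNA. The authors deposited the fold enrichment at each summit, a ratio to the caller's background. The deposited lists also hold −log10 p and −log10 q, the summit offset, and a score, which was not used. The highest q was 0.0491 and 0.0497. Lists held 24607 and 19318 peaks.

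GENCODE version 44 gave genes, exons and transcripts. A summit was counted for every protein-coding gene with an exon there. Shares in other genes were standardised to the members' lengths over 5 bins. Tables were made with pandas 2.3.3 and pysam 0.24.0 under Python 3.11.15, with scipy 1.17.1, numpy 2.4.6 and matplotlib 3.10.9, and the scripts were tested on simulated data. Sequences were read from hg38.

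Members, lists, tests and alternatives were chosen with earlier results of these data known. Named genes were the 12 members whose shared peak had the largest geometric mean over the 2 lists, the members of 6 role lists, those with a peak in 1 list alone, and the 5 longest without one. RNF11, RNF26, RNF39, RNF151, RNF152 and the further members outside the role lists were named after their values were seen. Alternatives covered peak thresholds, list size, gene assignment, length bins, overlap rules, transcript, stop codon and motif windows, each replicate left out, and, added later, RNF213 left out.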

Additional observations from a re-analysis of the deposited data

Results flagged for a closer look

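Peaks with the summit in an intron entered none of the counts above. RNF genes held 5 such peaks in replicate 1, in 5 members, and 8 in replicate 2, in 6 members. They were singled out as signal outside the exonic measurement. Their median fold enrichment was 7.39 and 5.01. Of these, 2 peaks in replicate 1 and 3 in replicate 2 overlapped a peak of the other list. They lay in RNF149, with 10.2 and 6.38, and in RNF213, where 1 peak of 3.46 in replicate 1 met 2 peaks of 4.68 and 4.11 in replicate 2. RNF150, which had no exonic peak, had 2 intronic peaks in replicate 2, with 5.15 and 4.58. Unannotated exons and other RNAs at these places were not tested.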

How the results depend on the processing

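No paired analysis was possible because a single group had peak lists and no test was made between groups. The length-standardised excess of members with a peak kept its sign under every alternative run for it. Of 146 values recomputed under the alternatives 129 stayed within the limits set for them, 17 moved and 0 reversed. Some of the 129 carry no information. At equal list size replicate 2, already the shorter list, was unchanged. With 1 replicate left out, the values only repeat those of the remaining list. With fold enrichment of 5 or more, member peaks numbered 64 in replicate 1 and 39 in replicate 2, their sharing was 53.1% and 89.7%, and their median was 7.34 and 6.37. In replicate 2, sharing was 82.9% when 50% of both peaks had to overlap and 80.3% with summits within 100 bp. A stop codon window of 100 nt held 13.2% and 13.4% of summits and one of 400 nt held 45.1% and 47.8%, with 31.3% left in the CDS of replicate 2. GGAC was found at 28.8% and 25% of summits within 25 nt and at 62.5% and 63.2% within 100 nt. These moves follow from the width of the windows and the stricter definitions. Values counted as within the limits could still shift. With peak midpoints in place of summits, the stop codon window share was 20.7% in replicate 1 and 21.2% in replicate 2, against 28.6% and 28.4%. With 1 replicate left out, members with a peak numbered 44 to 49. Peak number limits every share, and depth is unknown.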
